A study of Drosophila melanogaster with 19 samples.

Results

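The transcription factor gene tramtrack (ttk) was followed here together with 5 genes whose products act on Ttk or with it. The genes sina and phyllopod (phyl) encode the proteins that mark Ttk for degradation, and CtBP, MEP-1 and Mi-2 encode corepressor and chromatin proteins. The genes were chosen with earlier results of these data known. Their FlyBase numbers are FBgn0003870 (ttk), FBgn0003410 (sina), FBgn0013725 (phyl), FBgn0020496 (CtBP), FBgn0035357 (MEP-1) and FBgn0013591 (Mi-2). All 6 were among the 12679 genes with a value on every array, and no gene was removed for a low signal.

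As background, Ttk is a zinc finger repressor that keeps cells from taking up neural fates and that also shapes epithelial tubes such as the tracheal system, the branched airway of the fly. Its abundance is controlled in part at the protein level. In the developing eye and in sensory organs Phyl acts as an adaptor that brings Ttk to Sina, a RING-type ubiquitin ligase, after which Ttk is degraded by the proteasome. CtBP is a short-range corepressor that DNA-bound repressors recruit, Mi-2 is an ATP-dependent nucleosome remodeller, and MEP-1 is a zinc finger protein that joins Mi-2 in a repressive complex. An array measures RNA only, and the degradation step itself was not measured here.

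RNA from Drosophila embryos was measured on 19 one-colour Affymetrix arrays in 8 groups. In the mutant experiment, control embryos were btl-enh-RFPmoe (2 arrays of whole embryos and 3 of sorted cells), and the mutant was ttk2D50 btl-enh-RFPmoe (2 and 2 arrays). In the over-expression experiment the control was btl-GAL4 btl-enh-RFPmoe (3 and 2 arrays), and the over-expression genotype was btl-GAL4 UAS-ttk btl-enh-RFPmoe (3 and 2 arrays). Every group therefore carried btl-enh-RFPmoe, a red fluorescent membrane reporter driven by an enhancer of breathless (btl), which was used to sort the cells. Per the labels the mutant experiment was kept at 25 °C with 7 h 40 min of laying and 5 h 20 min of ageing, and the over-expression experiment at 29 °C. The study's methods give the same temperature for both. The methods name the transgene as ttk69, which encodes 1 of the protein isoforms of the gene, and select mutants by the absence of a fluorescent balancer.

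Several features of these groups limit what they can show. btl-GAL4 drives in the tracheal system and the midline, so most cells of a whole embryo lie outside its domain. The sorted cells are those in which the btl enhancer is active, which include tracheal and midline cells and others besides. The labels disagree on the over-expression control: the titles name btl-GAL4, the growth notes name a stock with UAS-ttk, and the strain field of both control cell samples names the mutant, so these samples were grouped by their titles. Whole embryos and sorted cells are bulk samples, in which fewer cells of a type and less RNA per cell cannot be told apart. The position of the array's probes relative to the ttk2D50 lesion and to the transgene is not given in the sources used here.

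Values are log2 expression, so that 1 unit is a doubling. The median of all genes on an array lay between 7.43 and 7.69 in the embryos and between 6.17 and 6.97 in the cells of the mutant experiment, and between 9.20 and 9.29 and between 8.16 and 8.30 in those of the over-expression experiment. Levels are therefore compared across experiments only after subtracting the median of each array, and this centred value is given beside each change that depends on it. Of the 4 tracheal and midline markers (trh, btl, dys and sim), 4 of 4 were called higher in the sorted control cells than in the embryos of the over-expression experiment, by 0.33 to 1.54, while the mesoderm genes twi and Mef2 had changes of -2.90 and -1.97. In the controls of the mutant experiment 0 of 4 were called. The blood cell and fat body regulator srp was also higher in the sorted cells of both controls, by 0.83 (adjusted p = 4.6e-04) and 2.64 (adjusted p = 0.106), and it is not a tracheal marker.

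Arrays that stand apart were looked for first, because they decide several of the results. On mutant control embryo array 2, all 6 genes were lower than on array 1, by 2.44 for ttk, 2.19 for MEP-1, 1.44 for phyl, 1.23 for sina, 1.19 for CtBP and 0.84 for Mi-2. Only 43.3% of all genes were lower on that array, and 15.6% were lower by at least 1, against 5 of the 6 genes. On embryo array 2 of the over-expression genotype the 6 genes were again all below the mean of the other arrays of the group, by 0.10 for Mi-2 to 0.61 for phyl, where 65.8% of all genes were lower. Among the control cells of the mutant experiment, array 3 had the highest phyl, CtBP, MEP-1 and Mi-2 values. The mean centred level of the tracheal and midline markers on that array was 0.04, against 1.66 and 1.25 on the other control cell arrays and -1.14 and 0.06 on the control embryo arrays, and its part in the values of the 6 genes was not tested.

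**Figure D1:**
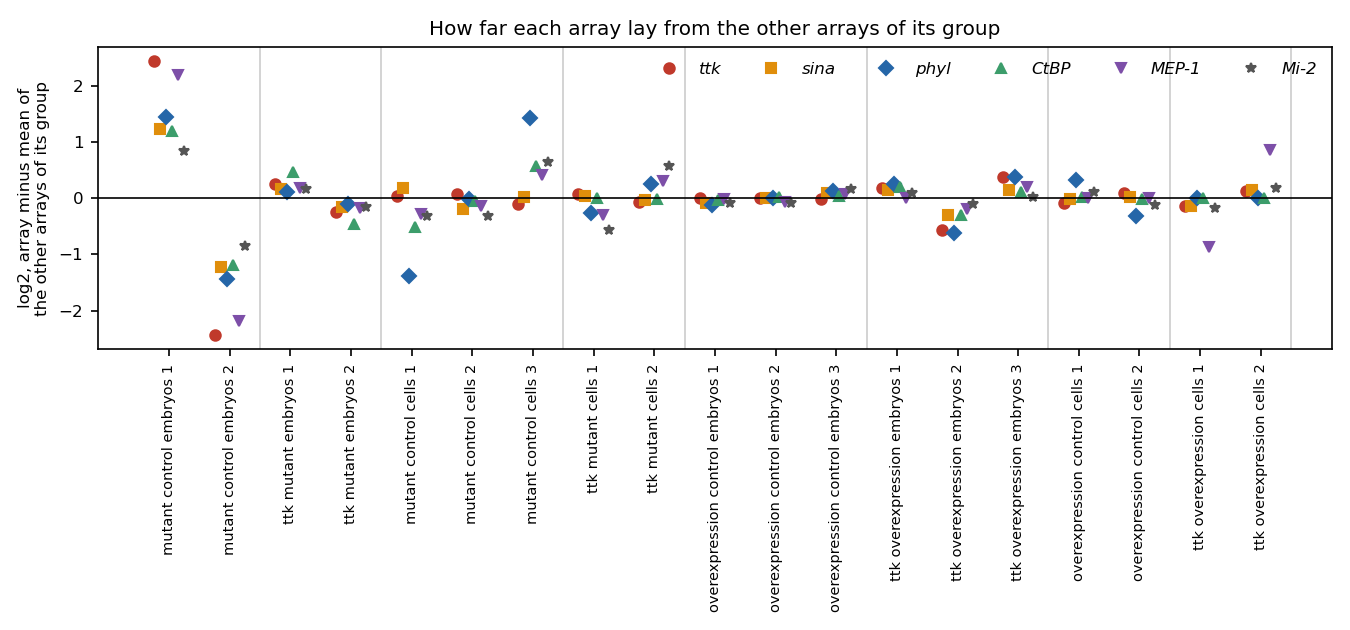
Difference on the log2 scale (vertical axis) between each array and the mean of the other arrays of its group, for the 6 genes (symbols). Mutant control embryo array 2 lies below array 1 for all 6 genes, by up to 2.44, while the 3 control embryo arrays of the over-expression experiment lie close to 0.

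The transcript of ttk itself was examined first, since it is the gene that was altered. Its values were 11.27 and 8.83 in the control embryos and 11.43 and 11.19 in the embryos labelled ttk mutant. These groups overlapped, with a log2 fold change of 1.26 (SE 0.92, 95% interval -1.36 to 3.89, limma adjusted p = 0.505) that was 0.04 without control array 2. In sorted cells the values were 10.33, 10.35 and 10.23 in the controls and 10.49 and 10.42 in the cells labelled ttk mutant. Both mutant arrays lay above all 3 controls, by 0.15 on average (adjusted p = 0.241), which held for 4.79% of all genes. The median change of all genes was -0.67 in this comparison. On centred arrays ttk was again higher without overlap, as were 22.5% of all genes. The arrays labelled ttk mutant thus did not have a lower mean ttk signal than their controls in either material.

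In the over-expression experiment ttk read 12.39, 12.39 and 12.38 in the control embryos and 12.06, 11.57 and 12.19 in the embryos labelled ttk over-expression. All 3 of the latter lay below all 3 controls (log2 fold change -0.45, SE 0.17, adjusted p = 0.280, and -0.26 without the second of them), which held for 23.6% of all genes. In sorted cells ttk read 11.89 and 11.99 in the controls and 11.19 and 11.32 in the cells labelled ttk over-expression, again without overlap (-0.69, SE 0.13, 95% interval -1.06 to -0.32, adjusted p = 0.276). There 23.4% of all genes were lower without overlap. The measured ttk signal therefore went against the over-expression label in both materials, and that label is used below only as the name of a genotype. Neither difference passed the test over all genes.

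On centred values, ttk was highest in the mutant cells (4.25 ± 0.003, SD, n = 2), followed by the control cells of the over-expression experiment (3.77 ± 0.09, n = 2), the mutant embryos (3.67 ± 0.24, n = 2) and the control cells of the mutant experiment (3.41 ± 0.07, n = 3). Lower levels were found in the over-expression control embryos (3.16 ± 0.02, n = 3), the cells labelled ttk over-expression (2.99 ± 0.14, n = 2), the embryos labelled ttk over-expression (2.69 ± 0.35, n = 3) and the mutant control embryos (2.61 ± 1.74, n = 2). Of the 7 pairs of neighbours in this order 3 overlapped, among them the lowest 3 groups with each other. The group means of ttk spanned 1.63, close to the median span of 1.65 over all genes. phyl and sina spanned more (2.82 and 2.49, more than 85.1% and 79.6% of genes), Mi-2 1.95, CtBP 1.45 and MEP-1 1.26, for which all 7 pairs of neighbours overlapped.

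**Figure D2:**
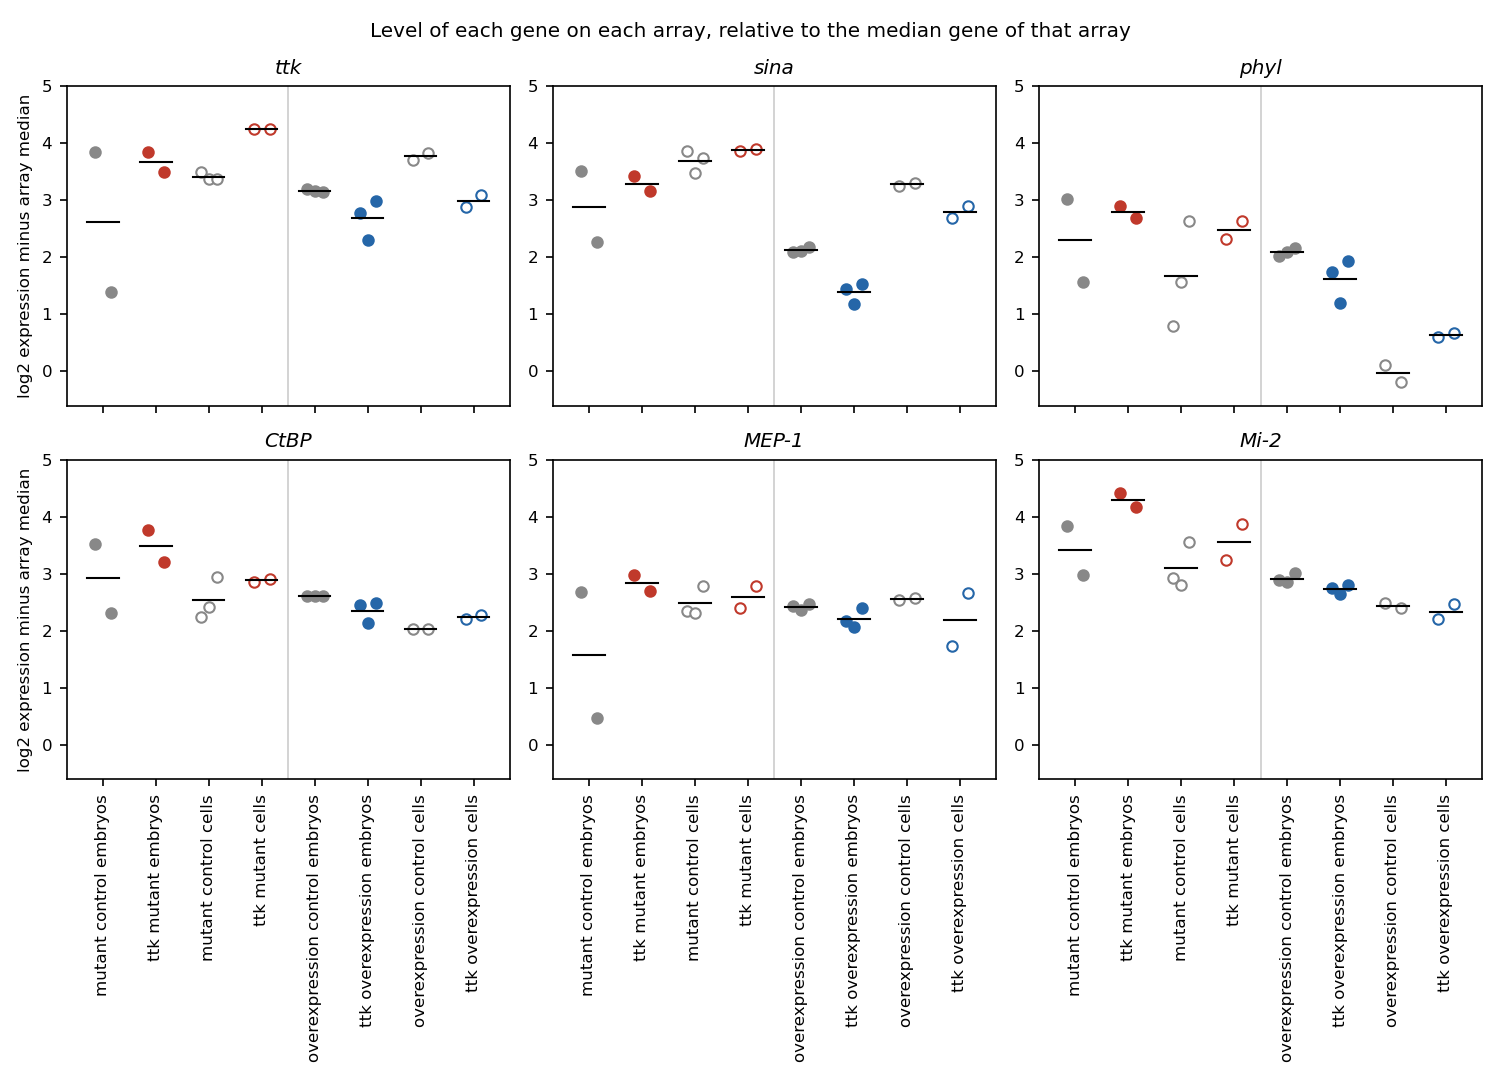
Log2 expression minus the median of the array (vertical axis) for each of the 6 genes in the 8 groups. Points are arrays (filled, whole embryos; open, sorted cells), horizontal lines are group means, and the vertical line separates the experiments. ttk is highest in the mutant cells (4.25), and phyl is lowest in the control cells of the over-expression experiment, where the mean is -0.03.

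Of the other 5 genes, sina was highest in the sorted cells of the mutant experiment (3.88 ± 0.02 in mutant and 3.69 ± 0.20 in control cells) and lowest in the embryos labelled ttk over-expression (1.39 ± 0.19). By group mean phyl was highest in the mutant embryos (2.79 ± 0.14) and lowest in the control cells of the over-expression experiment (-0.03 ± 0.21). Mutant control embryo array 1, at 3.02, lay above both mutant embryo arrays (2.89 and 2.69), and control array 2 read 1.57. The 3 corepressor genes were highest in the mutant embryos, at 3.49 ± 0.40 for CtBP, 2.84 ± 0.19 for MEP-1 and 4.30 ± 0.18 for Mi-2. Of these 3, only Mi-2 had a gap there, with both mutant embryo arrays (4.43 and 4.17) above every array of the next group.

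Embryos labelled ttk mutant were compared with their controls to ask whether the RNA of the partners differs with this genotype. None of the 6 genes was called at an adjusted p of 0.05, and neither was any other gene (0% of 12679, with 1697 genes at an unadjusted p of 0.05). The mean of all 6 was higher in the mutant embryos, by 0.60 for sina to 1.46 for MEP-1, where the median gene was higher by 0.19. MEP-1 (10.56 and 10.39 against 10.11 and 7.92) and Mi-2 (12.02 and 11.86 against 11.28 and 10.43) were the genes whose groups did not overlap, which also held, in the same direction, for 39.5% of all genes. Their log2 fold changes were 1.46 (SE 0.83, adjusted p = 0.446) and 1.08 (SE 0.39, adjusted p = 0.373).

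For the degradation genes the mutant embryos read 11.00 and 10.84 for sina, against 10.93 and 9.71 in the controls, and 10.48 and 10.38 for phyl, against 10.45 and 9.01, so that both overlapped. The size of these differences rested on control array 2. With that array left out, sina and phyl moved to -0.01 and -0.02, ttk to 0.04, CtBP from 0.77 to 0.17, MEP-1 from 1.46 to 0.37 and Mi-2 from 1.08 to 0.66. With control array 1 left out instead, ttk was at 2.49 and MEP-1 at 2.56. Either fit leaves 1 control array, whose spread cannot be measured, so only effect sizes are given.

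In the sorted cells of the mutant experiment, 1 of the 6 genes was called, which is below the share of all genes (47.2%, of which 44.4% lower). This was sina, which read 10.70, 10.45 and 10.59 in the control cells and 10.10 and 10.06 in the mutant cells, lower by 0.50 (SE 0.12, adjusted p = 0.031). The median of all genes fell by 0.67 in this comparison, however, and on centred arrays sina was 0.18 higher (adjusted p = 0.647). sina was also no longer called with the arrays of all 4 groups in the fit (adjusted p = 0.262) or without control array 1 or 3 (both 0.087). Markers differed in the same comparison. srp was called lower (-1.17, adjusted p = 0.017), and dys (-1.42) and Mef2 (-0.79) were lower without overlap but not called. On centred arrays srp was lower by 0.48 without overlap (adjusted p = 0.344), and dys and Mef2 overlapped. Their part in the sina value was not tested.

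phyl varied more among the control cells than between the groups. It read 7.62, 8.54 and 9.50 in the controls and 8.55 and 8.81 in the mutant cells (log2 fold change 0.13, SE 0.59, adjusted p = 0.862). CtBP (9.08, 9.39 and 9.81 against 9.10 and 9.09) and Mi-2 (9.78, 9.78 and 10.42 against 9.49 and 10.05) overlapped as well. MEP-1 was lower without overlap, 8.65 and 8.96 against 9.18, 9.28 and 9.65, by 0.56 (adjusted p = 0.077), in a comparison where 70.8% of all genes were lower without overlap. After centring, the direction of CtBP, MEP-1 and Mi-2 turned (0.35, 0.12 and 0.46). ttk was then 0.83 higher in the mutant cells (SE 0.16, adjusted p = 0.051), and the change of ttk exceeded that of 92.4% of genes.

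In the embryos labelled ttk over-expression, none of the 6 genes was called (0.347% of all genes were). All 6 were nevertheless lower on every array of this group than on every control array, which held for 23.6% of all genes. The difference was widest for sina, which read 11.29, 11.35 and 11.41 in the controls and 10.74, 10.44 and 10.73 in this group (-0.71, SE 0.11, 95% interval -0.99 to -0.43, adjusted p = 0.101). Its change lay below that of all but 2.86% of genes, and it was called when all 4 groups entered the fit (adjusted p = 0.031) and with embryo array 2 of this group left out (-0.61, adjusted p = 0.013), where 0.844% and 10.5% of all genes were called. phyl read 11.23, 11.32 and 11.40 against 11.04, 10.47 and 11.12 (-0.44, adjusted p = 0.302, and -0.24 without embryo array 2).

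The corepressor genes differed less. The changes were -0.23 for CtBP, -0.18 for MEP-1 and -0.16 for Mi-2, with adjusted p values of 0.328 to 0.365, and -0.13, -0.12 and -0.12 without embryo array 2. MEP-1, at 11.65, 11.60 and 11.70 against 11.46, 11.34 and 11.60, overlapped once arrays were centred. Of the 8 marker genes, 5 were also lower without overlap in these embryos and none was called. These were the tracheal gene btl (-0.95), the midline regulator sim (-1.01), the mesoderm genes twi (-0.64) and Mef2 (-0.40), and srp (-0.62). Within this group all 5 were lowest on embryo array 2, where btl read 7.47 against 9.11 and 9.07, and sim 7.28 against 8.52 and 8.35. The mean centred level of the tracheal and midline markers was -1.27 on that array, against -0.18 and -0.09 on the others. The tracheal genes trh (-0.30) and dys (0.47) and Adp (-0.15) overlapped. Their part in the 6 differences was not tested.

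In the sorted cells labelled ttk over-expression, 0 of the 6 genes were called, as was no other gene (0%, with 1485 genes at an unadjusted p of 0.05). The 2 degradation genes lay on opposite sides of their controls. sina read 11.44 and 11.46 in the control cells and 10.99 and 11.13 in the cells of this genotype (-0.39, SE 0.13, adjusted p = 0.395). phyl read 8.31 and 7.98 in the control cells and 8.90 on each of the arrays of this genotype (0.75, SE 0.17, 95% interval 0.29 to 1.22, adjusted p = 0.301). phyl exceeded 94.2% of genes in its change, and ttk lay above only 3.30%. None of the 8 markers was called in this comparison. Lower without overlap were sim (-1.01), dys (-0.36) and Adp (-0.37), and Mef2 was higher without overlap (0.25, overlapping on centred arrays). The part of these differences in the sina and phyl values was not tested.

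CtBP lay on the same side as phyl with a smaller difference, at 10.22 and 10.20 in the controls and 10.52 on each array of this genotype (0.31, SE 0.12, adjusted p = 0.454). Groups that did not overlap were found for 22.6% of all genes on the higher side and for 23.4% on the lower side. Mi-2 (10.67 and 10.56 against 10.52 and 10.70) overlapped. MEP-1 read 10.74 and 10.75 in the controls and 10.03 and 10.89 in this genotype, so that its mean change of -0.28 became 0.15 without the first of these arrays. That array had a mean centred tracheal and midline marker level of 1.07, against 1.92 on the other and 2.08 on both control arrays, and its part in the MEP-1 value was not tested.

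**Figure D3:**
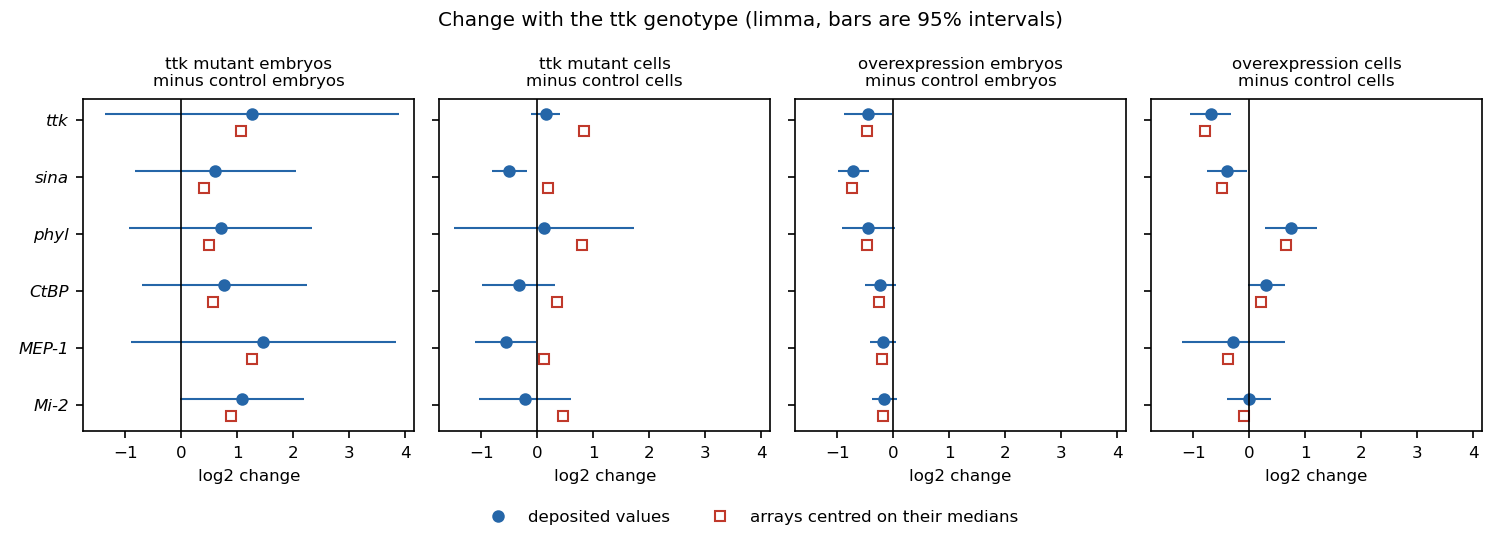
Log2 change of each gene (horizontal axis) between each ttk genotype and its control. Filled circles with 95% intervals are the deposited values, and open squares are the same change with arrays centred on their medians. In the mutant cells the squares lie to the right of the circles by about the fall of the median gene, and in the sorted cells labelled ttk over-expression ttk lies at -0.69 and phyl at 0.75.

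The change with genotype was next compared between cells and embryos within an experiment, as a contrast over its 4 groups. In the over-expression experiment 0 of the 6 genes passed over all genes (0.071% did). phyl came nearest: its change was 1.20 higher in cells than in embryos (SE 0.28, 95% interval 0.54 to 1.85, unadjusted p = 0.003, adjusted p = 0.204), and 1.13 higher on centred arrays. CtBP followed with 0.54 (adjusted p = 0.294), and the differences for ttk (-0.24), sina (0.32), MEP-1 (-0.10) and Mi-2 (0.15) had intervals that included 0. In the mutant experiment 0 of 6 passed as well (15.4% of all genes did). There MEP-1 had the widest difference, -2.03 (SE 0.85, adjusted p = 0.122), which was -1.14 on centred arrays. The MEP-1 difference was -3.12 without control embryo array 1 and -0.93 without control embryo array 2.

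Sorted cells and whole embryos of the same genotype were then compared. Of these 4 comparisons the controls of the over-expression experiment had the smallest spread between arrays, and 5 of the 6 genes were called there, all lower in the cells (78.5% of all genes were called, 66.2% lower). phyl had by far the widest gap, with 11.23, 11.32 and 11.40 in embryos against 8.31 and 7.98 in cells. It was 9.02-fold lower in the sorted cells (log2 fold change -3.17, SE 0.12, adjusted p = 3.0e-05), below all but 1.86% of genes, and lower by 2.12 on centred arrays (adjusted p = 6.1e-05). On centred arrays 77.5% of all genes were called in this comparison.

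CtBP (-1.63) and Mi-2 (-1.53) were lower in these cells on either scale, with centred changes of -0.58 (adjusted p = 4.3e-04) and -0.48 (adjusted p = 0.003). A centred call in these controls was shared with 77.5% of all genes, and so does not set a gene apart. MEP-1 was lower by 0.91 on deposited values but 0.14 higher on centred arrays (adjusted p = 0.104). After subtracting the median change of all genes its change was -0.28. For ttk and sina the scale set the outcome. ttk was 0.45 lower in the cells on deposited values and 0.60 higher after centring (adjusted p = 6.9e-04). After subtracting the median change of all genes the ttk change was only 0.18, above that of 57.9% of genes. sina was 0.10 higher without passing the test (adjusted p = 0.208) and 1.15 higher after centring (adjusted p = 7.6e-05), so that sina was higher relative to the median gene.

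In the embryos and cells labelled ttk over-expression, 4 of the 6 genes were called lower in the cells (38.6% of all genes were called, 33.4% lower). phyl was lower by 1.98 (adjusted p = 0.007; -0.99 centred, adjusted p = 0.033) and sina 0.42 higher (adjusted p = 0.107; 1.40 centred, adjusted p = 0.007). CtBP, MEP-1 and Mi-2 were lower by 1.09, 1.01 and 1.38, and none of these 3 was called on centred arrays, where 40.8% of all genes were called. Only 2 of the 6, phyl and Mi-2, were called with embryo array 1 or embryo array 3 of this genotype left out (14.8% and 17.2% of all genes). ttk was lower by 0.69 (adjusted p = 0.072) and 0.30 higher centred (adjusted p = 0.390). After subtracting the median change of all genes its change was -0.13.

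In the mutant experiment the 2 scales gave different counts. Between mutant cells and mutant embryos all 6 genes were called lower in the cells, by 0.84 for sina to 2.16 for Mi-2, but 80.8% of all genes were called, 78% lower, and the median gene was lower by 1.25. None of the 6 was called on centred arrays (31% of all genes were), where ttk and sina were 0.57 and 0.59 higher and the others lower. Between the control cells and control embryos 0 of 6 were called (2.02% of all genes were). phyl was lower by 1.18 in these cells (SE 0.74, adjusted p = 0.344) and by 1.89 with control embryo array 2 left out. ttk was 0.25 higher with both embryo arrays and 0.97 lower without array 2, and the sign of the sina and MEP-1 changes turned in the same way. Without embryo array 1, ttk and sina were higher in the cells by 1.48 and 0.87.

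**Figure D4:**
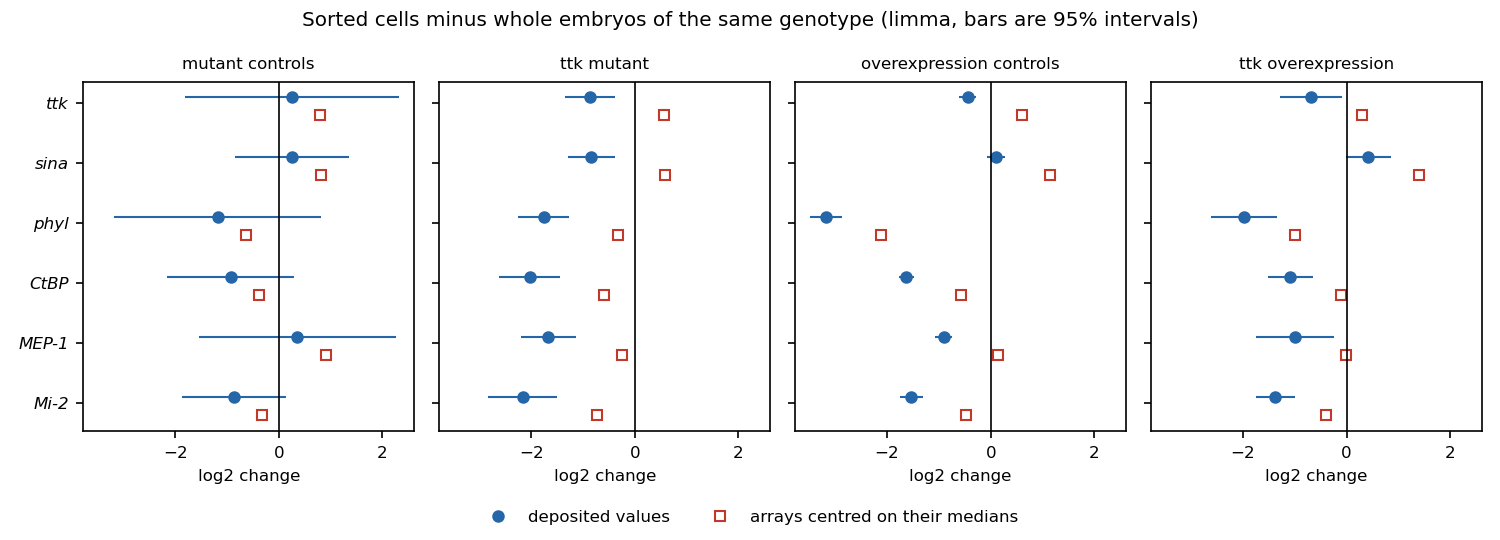
Log2 change of each gene (horizontal axis) between sorted cells and whole embryos of the same genotype, with 95% intervals for the deposited values (filled circles) and the change on centred arrays (open squares). phyl in the over-expression controls has the widest change (-3.17, or -2.12 centred). ttk and sina lie to the right of 0 on centred arrays in all 4 comparisons. After subtracting the median change of all genes instead, ttk in the over-expression genotype was at -0.13.

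The study itself called a gene by an absolute log2 fold change of at least 1 with an unadjusted p of at most 0.05. By that rule 0 of the 6 genes passed with ttk genotype in either material of either experiment. The shares of all genes were 9.83% in mutant embryos, 22.4% in mutant cells, 3.12% in over-expression embryos and 2.53% in over-expression cells. In mutant cells 20.1% of all genes passed as lower and 2.31% as higher. For the mutant experiment the paper lists fewer candidate genes, and in mutant cells mostly higher ones. The mutant shares here are therefore not the study's result, and the cause of the difference was not tested. For over-expression the numbers of genes were close to those of the paper. Between cells and embryos, 0 of 6 passed in the mutant controls (17.4% of all genes), 4 in the mutant (63.3%), 3 in the over-expression controls (38.5%) and 4 in the over-expression genotype (30.6%). The differences of MEP-1 and Mi-2 between cells and embryos in the mutant experiment (31.6% of all genes) and of phyl in the over-expression experiment (2.82%) also passed.

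The patterns of the 6 genes over the 19 centred arrays were compared with each other and with all other genes. These correlations are descriptions, as arrays of a group share their genotype and material. phyl, CtBP and Mi-2 varied together (Pearson r = 0.88 for phyl and CtBP, 0.93 for CtBP and Mi-2, and 0.84 for phyl and Mi-2), and Mi-2 was more like CtBP than 99.9% of all genes were. Among the 6 genes, ttk was closest to MEP-1 by Pearson r (r = 0.82, Spearman rho 0.71) and to sina by rho (r = 0.71, rho 0.81). ttk and MEP-1 both had their lowest centred values (1.38 and 0.48) on mutant control embryo array 2, and r without that array was not computed. ttk and phyl had an r of 0.21 and sina and phyl of 0.11, although sina and phyl act in the same degradation step. Over the means of the 8 groups the corresponding values were 0.90, 0.98 and 0.87 for the phyl, CtBP and Mi-2 pairs, and 0.79 and 0.74 for ttk with MEP-1 and sina.

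The genes most like ttk over these arrays were FBgn0028506 (r = 0.95, rho 0.96) and FBgn0023214 (r = 0.94, rho 0.97), which the tables used here do not pair with a symbol. The closest gene to each of the other 5 had an r between 0.94 for phyl and 0.98 for Mi-2. Other genes of the same machinery, such as the ubiquitin pathway gene ebi and the histone deacetylase gene HDAC1, are not described, because none of the 22 names on that list could be paired with a FlyBase number on the array.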

How the data were processed

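The authors hybridised RNA from whole embryos and from sorted cells to Affymetrix Drosophila Genome 2.0 arrays and deposited log2 values, 1 per FlyBase gene, made with an Ensembl-based chip definition. RMA is named in the submitters' processing notes without a version, and the genome build is not given in the sources used here. The log2 scale was inferred from the range of the deposited values. The authors left some arrays of the mutant experiment out at quality control, which were not analysed here. All 19 columns are samples, and depth does not apply to arrays, whose number (2 or 3 per group) limits the precision.

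The 182 control features were left out and 12679 genes tested. Groups were taken from the sample titles. Each comparison was fitted on its own arrays with limma 3.58.1 (R 4.3.3), two-sided, with Benjamini-Hochberg adjustment over all genes and a threshold of 0.05. The fit was tested on simulated data. An exact permutation test cannot go below 0.333 for 2 against 2 arrays, 0.2 for 3 against 2 or 0.1 for 3 against 3, and was not run. Alternatives were centring, quantile normalization, leaving out genes below the 25th percentile, a trend of the spread with intensity, a block for replicate numbers, all 4 groups in the fit, the study's rule (absolute log2 fold change of at least 1 with p of at most 0.05) and leaving out each array.

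The 6 genes and all lists were chosen with earlier results of these data known. Named besides them are the marker genes and the genes with the highest Pearson r to a member (3 for ttk, 1 for each other), with at most 2 FlyBase numbers where no symbol is paired. The gene table pairs 103 of the array's FlyBase numbers with a symbol, none of them on the list of 22 related genes. No sequence or coordinate is given.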

Additional observations from a re-analysis of the deposited data

Results flagged for a closer look

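For 3 results the arrays of a ttk genotype lay entirely on opposite sides of their controls in embryos and in cells, and in each the difference itself was tested over all genes and did not pass. Of all genes, 23.6% were lower without overlap in over-expression embryos and 22.6% higher in over-expression cells. In the mutant experiment 39.5% were higher without overlap in embryos and 70.8% lower in cells. The share of genes with both was not counted. phyl in the over-expression experiment was lower on all 3 embryo arrays (-0.44) and higher on both cell arrays (0.75), a difference of 1.20 (unadjusted p = 0.003, limma adjusted p = 0.204), with an unadjusted p of 0.004 on centred arrays. CtBP in the same experiment was lower in embryos (-0.23) and higher in cells (0.31), a difference of 0.54 (adjusted p = 0.294, and 0.433 on centred arrays). MEP-1 in the mutant experiment was higher in embryos (1.46) and lower in cells (-0.56), a difference of -2.03 (adjusted p = 0.122), where the cell arrays overlapped after centring. That difference was -0.93 without control embryo array 2 and -3.12 without control embryo array 1. No group has the 4 arrays needed for a test of single outlying values.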

How the results depend on the processing

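Some log2 changes between groups with unequal array medians turned with the scale, 10 with centring and 7 with quantile normalization, and 50 and 53 kept their direction. In the mutant cells, centring moved sina, CtBP, MEP-1 and Mi-2 to 0.18, 0.35, 0.12 and 0.46, and quantile normalization to 0.22, 0.41, 0.18 and 0.51. Between cells and embryos, centring moved ttk to 0.57 (mutant), 0.60 (over-expression controls) and 0.30 (over-expression), sina to 0.59 (mutant) and MEP-1 to 0.14 (over-expression controls), and quantile normalization moved ttk and sina of the mutant to 0.32 and 0.43. The difference between cells and embryos for phyl in the mutant experiment became 0.31 centred and 0.48 with quantile normalization.

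The share of all genes called in the same setting is given in brackets. The 1 member called in mutant cells became 0 with centring (5.45%), without genes below the 25th percentile (41.7% of those kept) and with the replicate block (0%). It was also 0 with all 4 groups in the fit (27.8%) and by the study's rule (22.4%). The count stayed at 1 with quantile normalization (6.25%), where the gene called was ttk, not sina. The 6 called between cells and embryos of the mutant became 0 centred (31%) and 1 with quantile normalization (26.7%). The 4 called between cells and embryos of the over-expression genotype became 2 centred (40.8%) and 0 with the block (0%). The 5 of its controls became 3 by the study's rule (38.5%). All 4 groups in the fit gave 1 call, sina, in over-expression embryos (0.844%). The study's rule gave 2 (31.6%) and 1 (2.82%) for the difference between cells and embryos in the mutant and over-expression experiments, where the adjusted p gave 0.

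The sources used here do not say whether same-numbered arrays were handled together, and the r of their deviations ran from -0.38 to 0.46. A shared batch is therefore not known. The replicate block lowered the genes called from 5984 to 0 in mutant cells and from 44 to 7 in over-expression embryos.

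Leaving out 1 array moved the share of all genes called as well as the members called. In over-expression embryos it gave 0 to 1 members, with 0.0631% to 10.5% of all genes called. Without 1 control cell array at most 1 member was called in mutant cells, with 16.1% to 46.9% of all genes called. Other fits left a lone array in a group, which was assumed to vary like the other group, so only effect sizes are given for them here. The ranges of log2 change that follow are over leaving out each array in turn. Ranges that crossed 0 were -0.0080 to 1.22 (sina) and -0.018 to 1.42 (phyl) in mutant embryos, -0.34 to 0.60 (phyl) and -0.50 to 0.063 (Mi-2) in mutant cells, and -0.71 to 0.15 (MEP-1) and -0.098 to 0.084 (Mi-2) in over-expression cells. Between control cells and embryos of the mutant experiment they were -0.97 to 1.48 (ttk), -0.35 to 0.87 (sina) and -0.74 to 1.45 (MEP-1). For the difference between cells and embryos they were -2.34 to 0.11 (ttk) and -1.29 to 0.14 (phyl) in the mutant and -0.53 to 0.33 (MEP-1) in the over-expression experiment. The cause of these shifts was not tested. Over all settings, 599 of the members' changes kept direction and side of the threshold, 37 lost a call, 23 gained one and 31 changed direction.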
